A study of Homo sapiens with 4 samples.

Results

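Chromatin modifiers are enzymes and binding proteins that write, erase or read chemical marks on histones and DNA or that move nucleosomes. The circular RNAs (circRNAs) described here come from 54 host genes whose symbols begin with or equal those of such families (KDM, KMT, SETD, NSD, ARID, SMARC, CHD, BAZ, HDAC, DNMT, TET, EZH, EED, JMJD, BRD, BPTF, EP300, CREBBP, ASH1L, PHF, PBRM1 and KAT). They were chosen by symbol from the 2279 host genes of the circRNA table, and they carried 106 of its 3840 circRNAs. The choice by symbol also took KATNBL1, a relative of the microtubule-severing protein katanin, and SETD3, a methyltransferase of actin, neither of which is a chromatin modifier by its known role.

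The study compared drug-resistant non-small cell lung cancer cells with the cells they were derived from. RNA depleted of ribosomal RNA was sequenced once for each of 4 cultures. A549 is a human lung adenocarcinoma line and A549/DDP is its cisplatin-resistant derivative. HCC827 is a human lung adenocarcinoma line known for an activating EGFR mutation, and HCC827/GR is its derivative described as resistant to the EGFR kinase inhibitor gefitinib, although the sample label calls it cisplatin-resistant. A549 and HCC827 were grown in the same medium, and the resistant lines were made by rising doses of drug over several months. By the study's methods the resistant lines were kept under their drug, which was taken away a week before the experiments. Each condition had 1 library, so no spread between replicates exists, no p-value is given, and each difference below is one between single libraries.

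A circRNA forms when a downstream splice donor of a transcript is joined to an upstream acceptor, which closes 1 or more exons into a ring with no free end. Such rings lack the ends that exonucleases attack and can outlast the linear mRNA of the same gene. Long genes with many exons, a group that holds many chromatin modifiers, are common sources of circRNAs. A circRNA level is therefore a level of RNA from the host locus and carries no direct measure of the protein.

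The deposited circRNA counts summed to 1760400 in A549 and 1960456 in A549/DDP, and to 2098414 in HCC827 and 1587755 in HCC827/GR. These counts were higher for rings of greater summed exon length, with a Spearman correlation of 0.474, 0.451, 0.447 and 0.333 in the same order over 2036, 2028, 1985 and 1640 circRNAs that overlap no other. Counts of rings whose positions overlap were mostly fractions, with 26.3% to 41.4% of them whole numbers in the 4 libraries. Of rings with no overlap 88.2% to 98.0% had whole counts, so some fractions stood there too. The counts came to between 7.06% and 8.80% of the reads that the deposited FPKM imply. They were therefore read as reads over a ring's exons, shared out among overlapping rings, and whether reads of the linear mRNA were kept out of them was not tested. The HCC827/GR library stood apart: 574 circRNAs (14.9%) had no count there, against 62 in the HCC827 library, 15 in A549/DDP and 7 in A549. Rings of the same host also moved apart in it. Over all hosts with several non-overlapping rings of 50 counts or more, the SD of the log2 differences within a host was 1.94 for HCC827/GR against HCC827, 0.275 for A549/DDP against A549 and 0.465 for HCC827 against A549. Among markers, EGFR and KRT7 of the epithelial list had circRNAs, with summed counts of 1607, 1316, 1053 and 2299, and FN1 and ZEB1 of the mesenchymal list had 276, 110.5, 172 and 0. No blood, endothelial or fibroblast marker had a row (0 of 8). That cannot show that such cells were absent, as most epithelial markers had no row either. The labelled cell type was thus checked on 2 of 10 epithelial and 2 of 4 mesenchymal genes. Both sums differ between each resistant line and its parent, and their part in the results below was not tested.

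The 54 hosts took 1.92% of all circRNA counts in A549 (Wilson 95% interval 1.90 to 1.94) and 2.10% in A549/DDP (2.08 to 2.12). Their share was 2.74% in HCC827 (2.72 to 2.76) and 2.27% in HCC827/GR (2.25 to 2.29). The 4 intervals do not overlap. They cover counting error only, as does every interval below, since PCR copies of a fragment are not independent molecules. HCC827 therefore gave these hosts the largest share and A549 the smallest. In structure the chosen rings resembled the rest. They had a median of 3.5 exons, against 4 over all circRNAs, and a median summed exon length per ring of 657 against 561.5 bases. Rings of a single exon made up 7.55% of them and 7.53% of all. Only 1 was a circular intron, in PHF14, with 7.5 counts in HCC827 and none elsewhere. The host symbols lay on 20 chromosomes, with 30 hosts giving 1 ring and 4 hosts (BPTF, KDM1A, KMT2C and SMARCC1) giving 6 each.

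The 15 hosts with the highest counts held 62.5% of the counts of the group. BAZ1B, the bromodomain partner of the ISWI remodelling ATPase SMARCA5, came first with 2708.5 and 4710 counts in A549 and A549/DDP, and 5009 and 2314 in HCC827 and HCC827/GR. All sets of 4 values below keep this order. It was followed by KDM1A (LSD1), a demethylase of histone H3 lysine 4, with 1964, 2668, 4508 and 2451 counts. KMT2C, which methylates the same lysine at enhancers, had 2389, 2288, 4455 and 2216. SETD2, the writer of H3 lysine 36 trimethylation, had 1681, 2289, 2978 and 1956 counts. All 4 had their highest count in HCC827, although after scaling to the library totals BAZ1B was about as high in A549/DDP as in HCC827. KMT2A (MLL1) had 1024, 1375, 3456 and 2690 counts, with both HCC827 libraries above both A549 libraries. SMARCC1, a scaffold subunit of the SWI/SNF complexes, had 1371, 1866, 3014 and 1543. PHF14, a PHD finger protein, had 1291, 1874, 2448 and 1875, and NSD1, a writer of H3 lysine 36 dimethylation, had 1320, 1508, 1947 and 673. ARID2 went another way than these, with more counts in A549 and A549/DDP (1358 and 1600) than in HCC827 and HCC827/GR (844 and 907). ARID2 is a subunit of PBAF, a SWI/SNF complex, and so is PHF10, with 831, 842, 1484 and 879 counts. The other hosts of the first 15 were BPTF, BRD8, SMARCA2, ARID1B and DNMT1, described below.

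**Figure D1:**
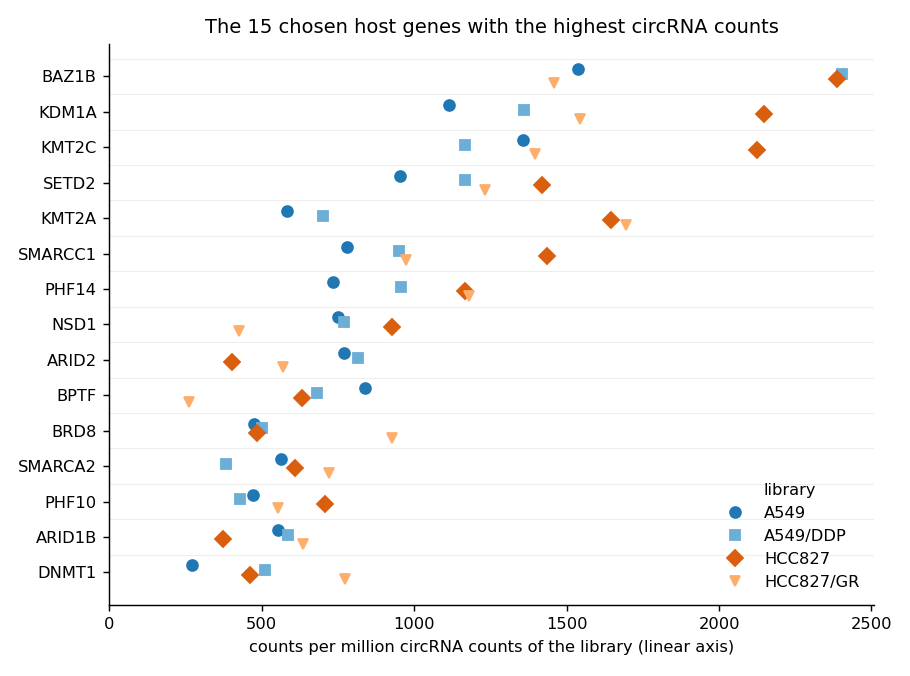
CPM, that is counts scaled to the library's circRNA total (x axis), of the 15 chosen host genes with the highest summed counts, 1 point for each of the 4 libraries. BAZ1B, KDM1A and KMT2C lead, and ARID2 lies higher in the A549 libraries than in the HCC827 libraries.

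Counts depend on ring length, so levels between genes were set side by side in FPKM, the deposited value, which is scaled to exon length and to sequencing depth. The median FPKM of the chosen rings was 14.5, 17.8, 17.9 and 15.9 in the 4 libraries, against 15.5, 17.1, 16.5 and 13.4 over all circRNAs. Per length, the highest chosen ring was a 3-exon ring of ARID1B in A549 (61.1 FPKM), the 2-exon ring of BAZ1B in A549/DDP (78.0), a 2-exon ring of KDM6A in HCC827 (144) and the 12-exon ring of DNMT1 in HCC827/GR (69.2). The order of the hosts per length was therefore different in each line. The 2-exon ring of SMARCA5 at chr4:143543509-143543972 stayed high in the first 3 libraries, at 55.4, 75.3 and 67.5 FPKM, and stood at 36.4 in HCC827/GR. Coordinates are those of the deposited table, whose genome build no source used here gives, and all 106 rings lay inside the RefSeq gene of the same name on GRCh38.p14.

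The first comparison asked how cisplatin-resistant A549/DDP differed from A549. Most of these hosts lay close to their parent level. The median log2 difference was 0.08 over the 54 hosts and 0.03 over all 2242 hosts with 10 counts or more in either library, and its SD was 0.42 against 0.74. Hosts were called higher or lower at 2-fold or more after scaling to the total circRNA counts and adding 3 counts to each library. Only 1 of the 54 was called higher, EED, where 2.90% of all hosts were called, and none (0) was called lower, where 8.34% were. With 1 library per condition no test backs these calls. The counting interval of the ratio lay above 1 for 19 hosts and below 1 for 14, shares of 35.2% and 25.9% beside 34.6% and 32.0% of all hosts, so such small differences were about as common among these hosts as elsewhere.

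EED is the subunit of Polycomb repressive complex 2 (PRC2) that binds trimethylated H3 lysine 27 and stimulates its writer EZH2. Its single ring, of 4 exons at chr11:86250296-86256512 on the + strand, had 84 counts in A549 and 280 in A549/DDP, but 612 in HCC827 and 0 in HCC827/GR. A549/DDP therefore had 2.99 times the scaled count of A549 (95% interval 2.34 to 3.87), and with a threshold of 4-fold EED would not be called. DNMT1, which copies DNA methylation onto the new strand after replication, had 479, 1004, 965 and 1225 counts on its 12-exon ring at chr19:10159658-10177367 on the - strand. The ratio of A549/DDP to A549 was 1.88 (1.69 to 2.10), under the threshold, and it passed at a log2 difference of 1.04 when counts were scaled to the reads behind the FPKM instead. A549 had the lowest DNMT1 count of the 4 libraries. EZH2, the catalytic subunit of PRC2, had 256, 431, 743 and 134 counts over 3 overlapping rings. Its ratio of A549/DDP to A549 was 1.51 (1.29 to 1.77). EZH1, the paralog that can take its place in PRC2, went the other way in the A549 pair, with 496, 398, 794 and 399 counts and a ratio of 0.721 (0.630 to 0.824).

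The promoters of these 3 genes with the higher values in A549/DDP are shown because EED, EZH2 and DNMT1 belong to the linked systems of Polycomb and DNA methylation and lay among the 6 largest log2 differences upward in that line. Each line gives the 250 bases before a RefSeq transcription start on GRCh38.p14, 5′ to 3′ on the gene's strand, with the letters of the CCAAT box (CCAAT, or ATTGG for the opposite strand) in capitals. EZH2 has starts at several positions and 2 are shown.
EED, chr11:86244503-86244752, + strand: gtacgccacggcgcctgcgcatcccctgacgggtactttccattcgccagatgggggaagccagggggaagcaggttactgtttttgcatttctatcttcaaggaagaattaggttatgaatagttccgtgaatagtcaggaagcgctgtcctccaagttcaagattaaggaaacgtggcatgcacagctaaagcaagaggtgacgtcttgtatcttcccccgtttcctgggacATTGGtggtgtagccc
EZH2, chr7:148884292-148884541, - strand: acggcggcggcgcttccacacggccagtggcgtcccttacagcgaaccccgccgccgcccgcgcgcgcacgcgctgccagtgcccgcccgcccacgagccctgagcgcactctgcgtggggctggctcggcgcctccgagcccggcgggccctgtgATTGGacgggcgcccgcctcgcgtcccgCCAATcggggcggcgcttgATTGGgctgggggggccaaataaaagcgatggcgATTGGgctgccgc
EZH2, second start, chr7:148883486-148883735, - strand: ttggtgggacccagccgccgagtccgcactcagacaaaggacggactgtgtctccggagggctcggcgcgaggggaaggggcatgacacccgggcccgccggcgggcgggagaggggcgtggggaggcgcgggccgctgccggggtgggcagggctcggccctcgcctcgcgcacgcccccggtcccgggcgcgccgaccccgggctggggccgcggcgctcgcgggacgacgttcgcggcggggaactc
DNMT1, chr19:10194954-10195203, - strand: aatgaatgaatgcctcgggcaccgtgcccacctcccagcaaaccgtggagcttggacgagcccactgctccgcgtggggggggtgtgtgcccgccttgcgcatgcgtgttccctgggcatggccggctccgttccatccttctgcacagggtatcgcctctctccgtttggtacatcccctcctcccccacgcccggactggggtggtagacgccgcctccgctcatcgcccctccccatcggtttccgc
The EED window held 1 CCAAT box, the first EZH2 window 4, and the other windows 0. Of 75 promoter windows found for 46 of the 54 hosts, 20 (26.7%) held a CCAAT box on either strand, against 32.0% of 35116 windows in the table. An E2F motif, searched on both strands as TTTCCCGC, TTTGGCGC, TTTCGCGC or TTTGCCGC, stood in 4 of the 75 windows (5.33%, those of EZH1, JMJD1C, KDM1B and PHF20), against 2.79% of all, and in none of the 4 windows shown. The GGGCGG box of SP proteins stood in 62.7% of the hosts' windows and in 42.6% of all. The hosts' windows were also richer in G and C, with a median of 68% against 58%, and the share of windows with the GC-rich motifs was not adjusted for this. These are matches of letters only.

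The other hosts with the largest upward values in A549/DDP were KDM1B, KATNBL1 and BAZ1B. KDM1B (LSD2), the second flavin-dependent demethylase of H3 lysine 4, had 154, 295, 634 and 102 counts on 1 ring of 12 exons. Its ratio of A549/DDP to A549 was 1.72 (1.41 to 2.10), larger than that of its relative KDM1A (1.22, 1.15 to 1.29). KATNBL1 had 237, 416, 263 and 0 counts, with a ratio of 1.58 (1.34 to 1.86). BAZ1B stood at 1.56 (1.49 to 1.64), and its 3 rings had log2 differences of 0.65, 0.57 and 0.65. These rings overlap and share out reads, so their likeness is partly built in. None of the 3 passed 2-fold.

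Among the hosts with lower values in A549/DDP, SMARCA1 (SNF2L), an ISWI remodelling ATPase, lay nearest to the threshold. It had 609, 340, 109 and 0 counts on 1 ring of 5 exons at chrX:129499732-129511983. The A549/DDP value was 0.501 times that of A549 (0.438 to 0.573), a log2 difference of -0.99, and -1.05 with scaling to the median ratio of all hosts, which calls it. SMARCA5 (SNF2H), the other ISWI ATPase, stood at 1.21 times (1.08 to 1.36), with 535, 722, 782 and 519 counts. The SWI/SNF ATPase SMARCA2 (BRM) had 990, 753, 1278 and 1143 counts, with a ratio of 0.683 (0.620 to 0.752) in the A549 pair. Its alternative SMARCA4 (BRG1) had 151, 185, 731 and 1051 counts, and its interval in the A549 pair held 1 (ratio 1.10, 0.883 to 1.37). The 2 ATPases of each family therefore gave unlike ratios in A549/DDP, and their difference was not tested. KDM3A, a demethylase of H3 lysine 9, had 362, 258, 395 and 458 counts and a ratio of 0.640 (0.543 to 0.753). KDM6A (UTX), the X-linked demethylase of H3 lysine 27, stood at 0.738 (0.628 to 0.867), and SETD5, a SET domain protein with 392, 330, 609 and 526.5 counts, at 0.756 (0.651 to 0.877).

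By role, the 12 hosts of methyltransferases and PRC2 ranged in A549/DDP from a log2 difference of -0.47 (EZH1) to 1.55 (EED), with 1 called higher. The 9 demethylase hosts ranged from -0.64 (KDM3A) to 0.77 (KDM1B), and the 19 remodeller hosts from -0.99 (SMARCA1) to 0.64 (BAZ1B), with 0 called in either list. The 8 reader hosts lay between -0.32 and 0.38. HDAC4, the only deacetylase host, had 280, 446, 902.5 and 363 counts and a log2 difference of 0.51. The 2 acetyltransferase hosts, EP300 and KAT6A, lay at -0.03 and -0.12. TET2, which oxidises methylated cytosine and so works against DNMT1, lay at -0.24.

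**Figure D2:**
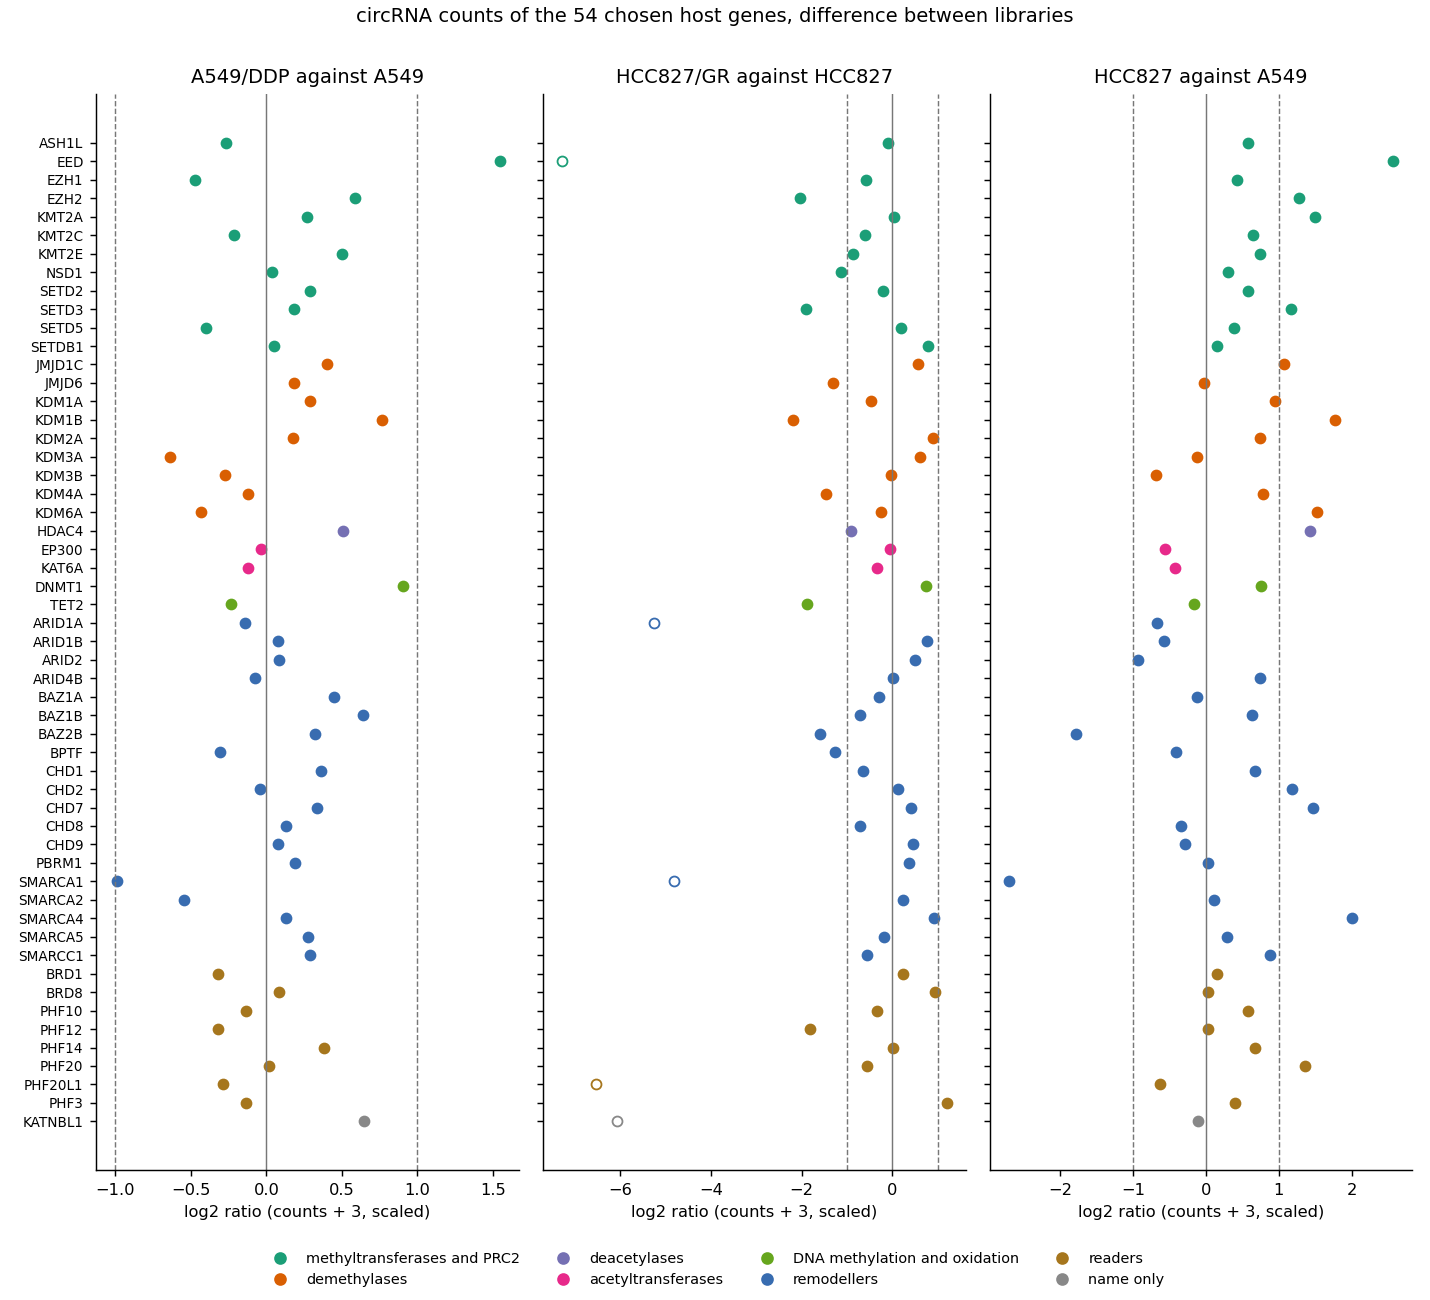
Log2 ratio of scaled circRNA counts with 3 counts added (x axis) for each of the 54 chosen hosts (rows, coloured by role), in the 3 comparisons. Open circles are hosts with no count in HCC827/GR, and dashed lines mark 2-fold. EED alone passes the line in A549/DDP, and values of HCC827/GR reach down to -7.28.

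The second comparison asked the same of HCC827/GR and HCC827. The values spread far more widely here, among the chosen hosts as among all. The SD of the log2 differences was 1.88 over the 54 hosts and 1.91 over 2210, with medians of -0.32 and -0.23. Of the 54, 1 was called higher (PHF3), where 13.2% of all hosts were, and 15 were called lower (27.8%), where 29.7% of all were. A share of lower calls near the background is no result about chromatin modifiers. The counting interval of the ratio excluded 1 upward for 17 hosts and downward for 31, where 34.1% and 52.3% of all hosts did. Because 5 of these hosts had no count at all in HCC827/GR (9.26%, against 14.6% of all hosts), the comparison was repeated with the rings counted in both libraries alone. Then 9 of 49 hosts were called lower, beside 19.9% of all, and PHF3 remained the single higher call. The host that lost its call, beside the 5 at 0, was NSD1, whose log2 difference went from -1.13 to -0.98.

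The 5 hosts at 0 in HCC827/GR were EED, PHF20L1, KATNBL1, ARID1A and SMARCA1, each with a single ring. EED had 612 counts in HCC827 and was at least 154-fold lower in HCC827/GR, taking 3 counts as the floor of a library. PHF20L1, a Tudor domain reader of methylated lysine, had 469, 427, 361 and 0 counts and was 91.0-fold lower (ratio up to 0.0136). ARID1A, the DNA-binding subunit of the BAF complex that is often lost in tumours, had 201, 203, 149 and 0. It was 37.6-fold lower (ratio up to 0.0331). KATNBL1 was 66.3-fold lower (ratio up to 0.0187), and SMARCA1, already low in HCC827, 27.5-fold (ratio up to 0.0455). ARID1B, the paralog of ARID1A, went the other way, with 976, 1147, 779.5 and 1008 counts and a ratio of 1.71 (1.55 to 1.88). Whether the zeros belong to the cells or to the library cannot be told apart, since HCC827/GR is 1 library and lacks 574 circRNAs in all.

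The other 10 hosts called lower in HCC827/GR had counts left. KDM1B stood at 0.213 times the HCC827 value (0.171 to 0.262) and EZH2 at 0.238 times (0.197 to 0.287). EED, the partner of EZH2 in PRC2, was low in this library as well, where 29.7% of all hosts were called lower. TET2 had 565, 534, 603 and 121 counts, a ratio of 0.265 (0.216 to 0.323), while DNMT1 had its highest count there and a ratio of 1.68 (1.54 to 1.83). SETD3 stood at 0.266 times (0.235 to 0.302). PHF12, a subunit of a SIN3 deacetylase complex, had 299, 266, 365 and 76 counts and a ratio of 0.275 (0.212 to 0.353). The H3 lysine 9 and 36 demethylase KDM4A had a ratio of 0.356 (0.284 to 0.442) and the JmjC oxygenase JMJD6 one of 0.393 (0.314 to 0.489). BPTF, the largest subunit of the NURF remodelling complex, had 1479, 1334, 1327 and 417 counts, a ratio of 0.415 (0.371 to 0.464), and lost its call on non-overlapping rings alone, with a log2 difference of -0.77. NSD1 stood at 0.457 (0.418 to 0.499). BAZ2B, a bromodomain protein, closed the list with 13 counts in HCC827 and 1 in HCC827/GR, a ratio of 0.102 whose interval ran from 0.00239 to 0.677.

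On the upward side, PHF3, a PHD finger protein, had 60, 61, 96 and 168 counts on its single-exon ring, and its ratio of HCC827/GR to HCC827 was 2.31 (1.79 to 3.0). BRD8, a bromodomain subunit of the TIP60 acetyltransferase complex, came next with 833, 984, 1018 and 1474 counts and a ratio of 1.91 (1.77 to 2.07). It would be called under scaling to the median ratio, at a log2 difference of 1.01. SMARCA4 had a ratio of 1.90 (1.73 to 2.09), from 731 to 1051 counts, and was higher in both HCC827 libraries than in either A549 library. KDM2A, a demethylase of H3 lysine 36, had 239, 301, 477 and 675 counts and a ratio of 1.87 (1.66 to 2.11). SETDB1, a writer of H3 lysine 9 methylation, had 159, 184, 212 and 275 and a ratio of 1.71 (1.43 to 2.06). KMT2A, at 1.03 times (0.978 to 1.08), and PHF14, at 1.01 times (0.953 to 1.08), were among the hosts whose interval held 1. KMT2A nevertheless lay at -1.08 on the log2 scale on its non-overlapping ring, which had 391 counts in HCC827 and 143 in HCC827/GR, and at -0.24 with summed FPKM. PHF14 went to 0.64 on non-overlapping rings alone and to -0.24 with summed FPKM.

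Set side by side, the 2 resistant lines had no host of the 54 called in the same direction. Only 1 of the 54, EED, was called at all in A549/DDP, so at most 1 could have been shared and the absence says little. Of 2191 hosts of the whole table, 10 were called higher in both and 74 lower in both. Across the 54 hosts the log2 differences of the pairs had a Spearman correlation of -0.0938, and across 2191 hosts of 0.0173. The pairs share no library, and hosts are not independent replicates. EED was called in both pairs and in opposite directions, 1.55 in A549/DDP and -7.28 in HCC827/GR on the log2 scale. EZH2, KDM1B and KATNBL1 also lay above 0 in the first pair and were called lower in the second. DNMT1 lay above 0 in both and SMARCA1 below 0 in both.

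**Figure D3:**
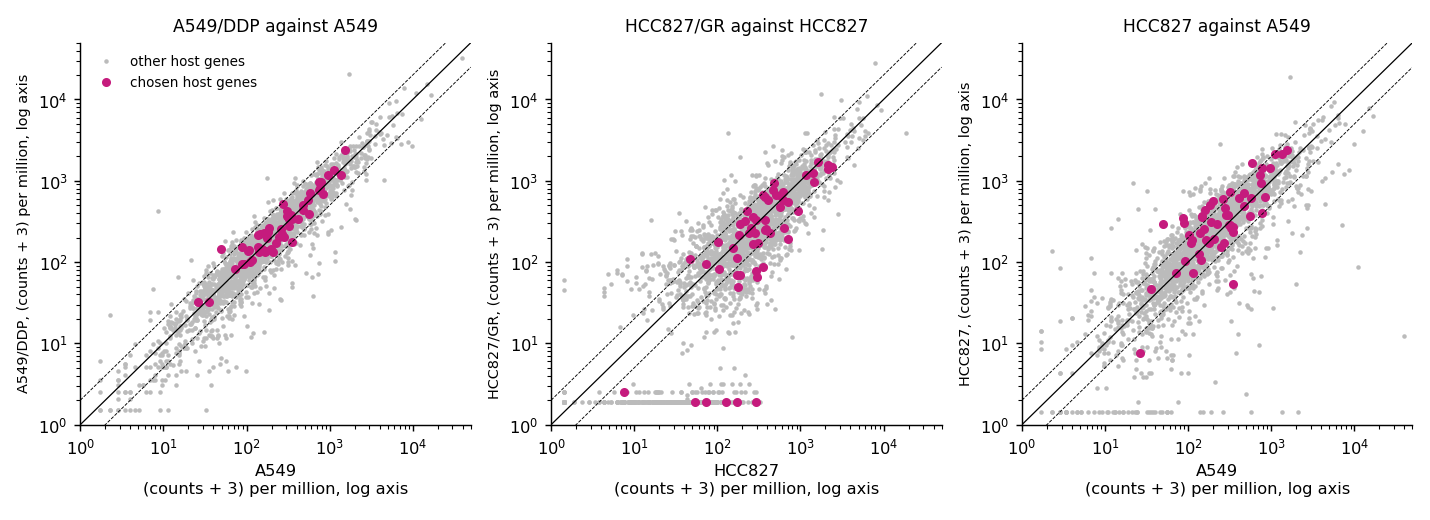
Scaled circRNA counts per host gene, with 3 counts added and in CPM on log axes, of the 2 libraries of each comparison. Grey points are other hosts, coloured points the 54 chosen hosts, the solid line equal values and the dashed lines 2-fold. The cloud of HCC827/GR against HCC827 is the widest, and its row of low points holds hosts with no count in HCC827/GR.

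The third comparison set the parent lines against each other, HCC827 against A549, which differ in origin and genotype and not by treatment. It gave the largest number of calls upward among the chosen hosts. Of the 54, 12 were called higher in HCC827 (22.2%), where 16.0% of all 2257 hosts were, and 2 lower (3.70%), where 12.6% were. All hosts were shifted in this pair, with a median log2 difference of 0.22, and the chosen hosts lay at 0.41. With scaling to the median ratio, which removes most of that shift, 8 were called higher and 3 lower, beside 9.22% and 16.5% of all. The counting interval lay above 1 for 30 of the 54 hosts and below 1 for 12, beside 49.4% and 28.8% of all.

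EED was again the host with the largest value, at 6.11 times the A549 level (4.86 to 7.77). EZH2 stood at 2.43 times (2.11 to 2.82), with its 3 overlapping rings, which share out reads, at log2 differences of 1.31, 1.10 and 1.39. Every one of the 12 methyltransferase and PRC2 hosts lay above 0 in HCC827, from 0.15 (SETDB1) to 2.57 (EED), 4 of them were called, and the intervals of 11 excluded 1. Most hosts of the table lay upward as well. Of all 2257 hosts, 1362 lay above 0, 16.0% were called higher and 49.4% had an interval above 1. With the median ratio the calls of EZH2 (0.99) and SETD3 were lost and SETDB1 turned to -0.13. The calls of CHD2 and JMJD1C, hosts of other roles, were lost in the same way. KMT2A stood at 2.83 times (2.64 to 3.04), or at a log2 difference of 0.69 on its non-overlapping ring alone, and SETD3 at 2.26 times (2.05 to 2.49), the latter an enzyme of actin. KMT2C, with 1.56 times (1.49 to 1.64), SETD2, with 1.49 (1.40 to 1.58), and ASH1L, with 1.49 (1.36 to 1.64), lay under the threshold. On the same log2 scale the shift of all hosts, 0.22, is larger than the SETDB1 value.

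Of the 9 demethylase hosts, 3 were called higher in HCC827 and 0 lower, beside 16.0% and 12.6% of all hosts. The intervals of 6 lay above 1 and of 1 below, beside 49.4% and 28.8% of all. KDM1B stood at 3.45 times the A549 level (2.89 to 4.15), KDM6A at 2.90 times (2.57 to 3.28) and JMJD1C, a JmjC family protein, at 2.13 times (1.79 to 2.54). KDM1A stood just under the threshold at 1.93 times (1.83 to 2.03). KDM3B, which demethylates H3 lysine 9, stood at 0.623 times (0.537 to 0.721). HDAC4, a class IIa deacetylase, stood at 2.70 times (2.36 to 3.10), while the acetyltransferases EP300 and KAT6A stood at 0.678 (0.602 to 0.765) and 0.741 (0.615 to 0.892). PHF20, a reader in an acetyltransferase complex, stood at 2.58 times (2.23 to 2.98).

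Of the remodellers, SMARCA4 had the largest value, 4.06 times that of A549 (3.40 to 4.87). A549 is known to carry an inactivating SMARCA4 mutation, and its SMARCA4 ring was still counted, with 151 reads and 5.70 FPKM, against 21.3 FPKM in HCC827 and 38.7 in HCC827/GR. CHD7, a chromodomain helicase, had 319, 450, 1063 and 1068 counts, 2.80 times higher in HCC827 (2.46 to 3.18), and CHD2 had 456, 493, 1232 and 1018, 2.27 times higher (2.03 to 2.53). SMARCA1 was the clearest of the 2 lower calls, at 0.150 times (0.121 to 0.184). The other was BAZ2B, at 0.254 times (0.125 to 0.481) on 43 and 13 counts. ARID2 stood at 0.522 times (0.478 to 0.569), close to the threshold, which it passed at -1.22 on the log2 scale with the median ratio. Over the 4 ATPases SMARCA1, SMARCA2, SMARCA4 and SMARCA5, the order per length was thus SMARCA5, SMARCA1, SMARCA2, SMARCA4 in A549 (55.4, 43.0, 18.0 and 5.70 FPKM for the highest ring of each) and SMARCA5, SMARCA4, SMARCA2, SMARCA1 in HCC827 (67.5, 21.3, 17.9 and 5.93). SMARCA2 thus lay at nearly the same level in both parents, with an interval of its ratio that held 1 (0.996 to 1.18), while SMARCA1 and SMARCA4 changed places.

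**Figure D4:**
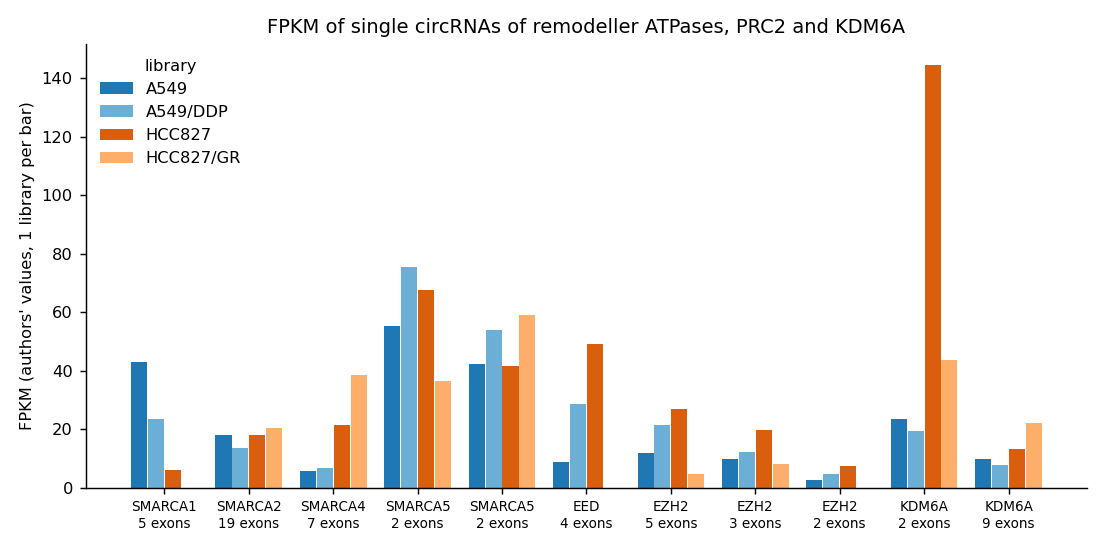
FPKM of single rings (y axis) of SMARCA1, SMARCA2, SMARCA4, SMARCA5, EED, EZH2 and KDM6A (x axis), with 1 bar for each of the 4 libraries. The 2-exon ring of KDM6A reaches 144 FPKM in HCC827 while the 9-exon ring stays at 13.4, and the rings of EED and SMARCA1 are at 0 in HCC827/GR.

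Rings of the same host can be set against each other within a library pair, a comparison that scaling does not touch. In A549/DDP against A549 they moved together. Over the 24 hosts with several rings of 10 counts or more, the range of the log2 differences within a host had a median of 0.36 and exceeded 1 in 0 hosts, with its largest value, 0.79, in PHF14. The figures for these 24 hosts include overlapping rings, which share out reads and can be drawn together by that. In HCC827 against A549 the median range was 0.44, and 5 hosts exceeded 1. In HCC827/GR against HCC827 the median was 1.5, and 18 of the 24 exceeded 1. Over non-overlapping rings of 50 counts or more, the SD within a host was 0.237, 0.645 and 2.58 for the chosen hosts in the same order, beside 0.275, 0.465 and 1.94 for all hosts. These SDs rest on 10, 11 and 11 chosen hosts.

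KDM6A showed the widest split between the parent lines. Its ring of 2 exons, 180 bases long at chrX:45010961-45020730, had 93, 78, 739 and 176 counts. Its ring of 9 exons, 1176 bases long at chrX:45076697-45090864, had 250, 204, 447 and 582 counts. The first was thus 2.70 higher on the log2 scale in HCC827 than in A549 and the second 0.58 higher. In FPKM the short ring stood at 23.6, 19.4, 144 and 43.5 and the long ring at 9.71, 7.78, 13.4 and 22.0. The higher KDM6A count of HCC827 therefore rested mostly on 1 ring, and in HCC827/GR the short ring was lower and the long ring higher than in HCC827. SMARCC1 gave 6 rings, of which 3 passed 2-fold in HCC827 (log2 1.17 to 1.23) while another lay at 0.13.

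In HCC827/GR such splits were common. CHD9, a chromodomain helicase, had a single-exon ring with 45, 35, 28 and 201 counts and a 2-exon ring with 140, 175, 118 and 0, a range of 8.05 on the log2 scale that its summed ratio of 1.37 hides. BPTF had a 3-exon ring with 264, 326, 346 and 240 counts and a 2-exon ring at chr17:67920015-67922990 with 223, 187, 181 and 0. KMT2C had a 4-exon ring with 130, 140, 301 and 1 counts and a 3-exon ring with 94.5, 76.5, 169.5 and 275. ARID1B and KDM2A each had a 3-exon ring past 2-fold upward, at log2 differences of 1.96 and 1.65. Taken ring by ring, 33 of 105 rings with 10 counts or more in either library were called lower in HCC827/GR (31.4%) and 5 higher (4.76%), beside 31.8% and 13.1% of all rings, so the share of lower rings was that of the table. In A549/DDP 0 were lower and 1 higher, beside 7.37% and 3.09% of all. In HCC827 against A549 2 were lower and 24 higher (22.9%), beside 12.6% and 15.6%. A host total in HCC827/GR is thus a sum over rings whose ratios to HCC827 lay more than 2-fold apart in 18 of 24 hosts.

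**Figure D5:**
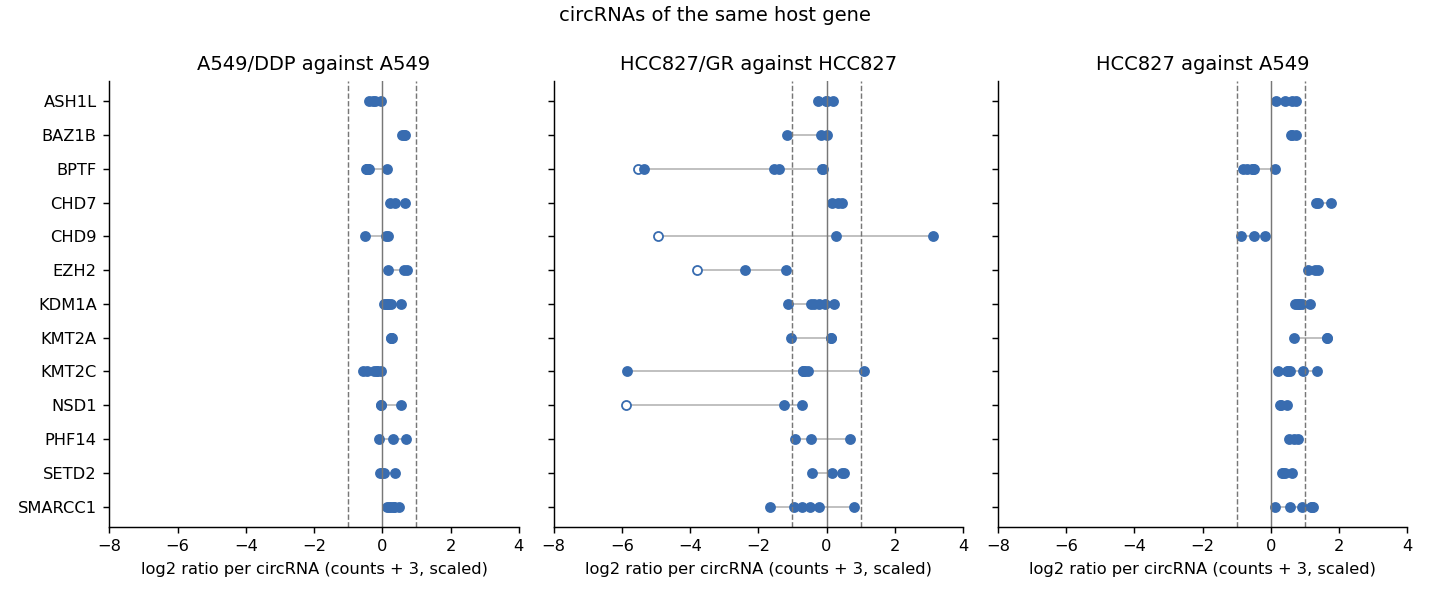
Log2 ratio of scaled counts with 3 counts added (x axis) for the rings of 10 counts or more of the 13 chosen hosts with at least 3 rings (rows), in the 3 comparisons. Open circles are rings with no count in HCC827/GR, and dashed lines mark 2-fold. Rings of a host lie close together in A549/DDP against A549 and far apart in HCC827/GR against HCC827. Overlapping rings, which share out reads, are included.

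A second readout at these loci came from the lncRNA table, which named 258 unannotated transcripts after 27 of the 54 hosts. Of these, 244 carried the class code of a transcript within an intron, and 254 had a single exon. By number, though not necessarily by amount, most of them thus measure other RNA of the locus than the spliced rings. They were above 0 in 121, 153, 124 and 44 cases, fewest in HCC827/GR. By amount the order was another, since their aligned bases summed to 220, 106, 215 and 329 per megabase, highest in HCC827/GR and lowest in A549/DDP. The transcripts named after JMJD1C gave 136, 32.7, 72.5 and 37.4 of these, and the one named after ARID1A gave 32.0, 0, 0 and 0. The A549 sum thus rested mostly on these hosts, and without them A549 would lie below A549/DDP. JMJD1C held the most transcripts, 52, and 1 of them had 23 exons. Its FPKM was 15.5, 1.79, 4.73 and 0, whereas the JMJD1C ring had 179, 265, 454 and 507 counts and thus the reverse order at both ends. A transcript of 20 exons named after ARID1A had 4.50 FPKM in A549 and 0 in the 3 libraries that remain, while the ARID1A ring was counted in A549/DDP and HCC827 as well. Both this transcript and the JMJD1C transcript of 23 exons span the ring of their host, although both carry the intronic class code. Whether they hold the same exons as the ring was not tested.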

How the data were processed

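RNA of 4 cell lines, 1 library each, was measured by paired-end sequencing after depletion of ribosomal RNA. The authors trimmed and aligned the reads, and the submitters' processing notes name TopHat. The genome build and the circRNA caller are named in no source used here. For each circRNA the deposited table holds the authors' estimated counts, which can be fractions, and the authors' FPKM. The lncRNA table holds the authors' FPKM and mean coverage of each transcript. The reads behind the FPKM were the count divided by the product of FPKM and length, rescaled for the units of FPKM. They came to 21900963 for A549, 22284739 for A549/DDP, 28415200 for HCC827 and 22478736 for HCC827/GR. All rings of 1 exon gave a value within 0.1% of that of their library.

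Counts were summed by host symbol and scaled by each library's circRNA total. Ratios have exact conditional binomial intervals at 95%, from counts rounded to whole numbers, for counting error only. Hosts with 10 counts or more in either library were compared, with 3 counts added to each library for log2 values. A host was called at 2-fold, the fold of the study. No difference between libraries was tested for significance, as each condition has 1 library. Depth differed by at most the totals printed above, and the fold of a host with no count takes 3 counts as its floor. The hosts, the role lists and the list of other regulators were chosen with earlier results of these data known. Named were the 15 hosts with the highest counts, the 6 largest values in each direction in each resistant line, hosts called alike in both, and their most abundant ring. Other hosts and rings were named as called or after their values were seen. Alternatives were the median ratio, no minimum or a minimum of 20 counts, a floor of 1 count, 4-fold, summed FPKM, single rings, exonic rings and, for the share, detected rings and leaving out KATNBL1. Chosen after seeing the data were scaling to the reads behind the FPKM, rings with no overlap, and rings above 0 in both libraries. The calling step was run on simulated counts with known folds and counting error only. Such counts cannot show how calls fare with variation between libraries. Promoter sequences came from RefSeq (GRCh38.p14). The work was done in Python 3.11.15 with scipy 1.17.1, numpy 2.4.6 and pandas 2.3.3, and plots with matplotlib 3.10.9.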

Additional observations from a re-analysis of the deposited data

Results flagged for a closer look

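EED, the PRC2 subunit that binds trimethylated H3 lysine 27, had a log2 difference of 1.55 in A549/DDP against A549 and of -7.28 in HCC827/GR against HCC827. It is picked out because the only library of one resistant line lay above its parent and the only library of the other lay below. The difference between the pairs was not tested. The counts were 84 and 280 in the A549 pair and 612 and 0 in the HCC827 pair, and the -7.28 rests on the HCC827/GR library, in which 332 of 2279 hosts (14.6%) had no count.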

How the results depend on the processing

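No paired analysis was possible because each condition has 1 library. For the same reason no replicate could be left out. The 22 group-level values that moved are given first. In A549/DDP against A549, 2 hosts were called higher (EED and DNMT1) with summed FPKM and with counts scaled to the reads behind the FPKM, 0 were with 4-fold, and 1 host was called lower (SMARCA1) with the median ratio. In HCC827/GR against HCC827, 2 were called higher with the median ratio, 0 higher and 7 lower with 4-fold, and 9 lower with rings above 0 in both libraries. Ring by ring, 5 were higher and 33 lower. In HCC827 against A549, 1 was higher and 1 lower with 4-fold, and 24 rings were higher ring by ring. The share of counts was 1.94%, 2.12%, 2.76% and 2.30% with exonic rings alone, and 2.08% in A549/DDP without KATNBL1. As a share of the rings detected it was 2.74%, 2.75%, 2.81% and 2.91%.

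Scaling to the reads behind the FPKM changed the background of the A549 pair to 4.50% higher and 7.14% lower. Of 613 values of named hosts under the alternatives, 15 changed sign, none with a main log2 value beyond 0.15 in size, and 103 moved by more than the counting interval. With rings of no overlap alone, KMT2A went from 0.04 to -1.08, KMT2C to -5.89, NSD1 to -5.93 and BPTF to -0.77 in HCC827/GR. ARID2 went to -1.22 with the median ratio and to -1.06 with the reads behind the FPKM in HCC827 against A549.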

Other observations

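Another 114 chromatin regulators outside the chosen symbols were looked up, and 54 of them had a circRNA. In A549/DDP against A549, 0 of the 53 with 10 counts or more were called higher and 1 lower (PCGF3, a Polycomb protein with 13, 0, 0 and 0 counts), beside 2.90% and 8.34% of all hosts. In HCC827/GR against HCC827, 3 of 51 were higher (5.88%) and 11 lower (21.6%), beside 13.2% and 29.7% of all hosts. KANSL1L, a relative of the NSL complex scaffold, had 159, 231, 543 and 1855 counts, a log2 difference of 2.17 in HCC827/GR. SFMBT2, a Polycomb group protein known for abundant rings, had 1339, 1167, 3827 and 226 counts, a difference of -3.66. ATAD2, a bromodomain ATPase, had 2628.5, 3560, 4583 and 1136, a difference of -1.61. UHRF1, which brings DNMT1 to hemimethylated DNA, had 59, 53, 73 and 1 counts, whereas the DNMT1 ring was highest in HCC827/GR.

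Between the parent lines, 8 of 53 of these regulators were called higher in HCC827 (15.1%) and 3 lower (5.66%), beside 16.0% and 12.6% of all hosts, so the share of higher calls was near that of the table. NIPBL, the cohesin loader, had 1376, 1529, 5225 and 2518 counts, a log2 difference of 1.67. The lowest value was that of UTY, with 107, 141, 0 and 0 counts and a difference of -5.45. NCOA3, a nuclear receptor coactivator, had 3671.5, 3300, 1723 and 2434 counts, a difference of -1.34. These values come from single libraries, were named after they were seen, and were not tested.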
